A study of Mus musculus with 16 samples.

Results

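The data are the signals of 32 genes that mark 3 organs in mice, 13 of liver, 12 of heart and 7 of kidney, on 16 whole-genome arrays of spinal cord. The genes were chosen by name, and a member is any spot that is no control and carries 1 of the 32 symbols. The arrays list 27962 gene names on 41174 probes, and 46 of these probes belong to the members. The symbols of 30 members stood in the files as such, and *Alb* and *Hpx* were found under the older names *Alb1* and *Hpxn* through their RefSeq accessions. Where a gene had several probes, it was represented by the probe with the highest mean Cy5 signal.

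Every array carried Cy3-labeled RNA of whole lumbar spinal cord against a Cy5-labeled reference. The cords came from male SOD1G93A mice, which carry many copies of a mutated human *SOD1* gene and develop a motor neuron disease, or from NonTg wild-type mice, at 40 or 80 days and with 4 arrays for each genotype at each age. The reference was 1 RNA pool made from hearts, kidneys and livers of neonates, drawn per the labels from both NonTg and SOD1G93A animals, and it was the same for all 16 arrays. Cord donors and pool share the B6SJL background. No array had the dyes exchanged, so a dye preference of a probe stays in its ratio, and the share of each organ in the pool is not given in the sources used here. The labels call the 4 arrays of a group biological replicates.

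The liver members encode proteins that hepatocytes make. *Alb*, *Afp*, *Ahsg*, *Ambp*, *Apoh*, *Hpx*, the fibrinogen chains *Fga*, *Fgb* and *Fgg* and the apolipoproteins *Apoa1* and *Apoa2* are secreted into plasma, and *Cps1* and *Otc* are enzymes of the urea cycle. *Afp* is the fetal relative of albumin and is shut down after birth. The heart members build the contractile filaments of cardiac muscle (*Myh6*, *Myh7*, *Actc1*, the myosin light chains *Myl2*, *Myl3*, *Myl4* and *Myl7*, and the troponins *Tnni3* and *Tnnt2*), release calcium from the sarcoplasmic reticulum (*Ryr2*) or encode the natriuretic peptides (*Nppa* and *Nppb*). The kidney members are transporters and channels of successive nephron segments (*Slc34a1* of the proximal tubule, *Slc12a1* of the thick ascending limb, *Slc12a3* of the distal tubule, *Aqp2* of the collecting duct), uromodulin (*Umod*), the slit diaphragm protein nephrin (*Nphs1*) and the androgen-regulated protein *Kap*.

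Promoters of 5 members are shown because they hold a motif that was found in several members of 1 organ. Windows of 250 bases before the start of 32851 genes, from RefSeq on GRCm38.p6, were searched on both strands, and 31 members had such a window. TATAAA was searched on the strand of the gene only. The letters GTTAAT stood in 6.43% of all windows, in 4 of 12 liver members (*Alb*, *Afp*, *Fga*, *Fgb*), in 2 of 7 kidney members (*Slc34a1*, *Umod*) and in 0 of 12 heart members. The CArG box, the site of serum response factor in muscle genes, stood in 1.47% of windows, in 3 of 12 heart members (*Actc1*, *Myl3*, *Myl7*) and in *Hpx*. TATAAA stood in 7.59% of windows and in 6 members, and the GATA letters AGATAA in 9.99% of windows and in 6 members, 3 of heart and 3 of kidney. The stretches shown are the last 120 bases before the start, and capitals mark the motif named for each, on either strand. A match says only that these letters are there.
Alb, GTTAAT, chr5:90460750-90460869, plus strand: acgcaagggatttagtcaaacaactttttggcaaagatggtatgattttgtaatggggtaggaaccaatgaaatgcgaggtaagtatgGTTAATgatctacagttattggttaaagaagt
Afp, GTTAAT, chr5:90490594-90490713, plus strand: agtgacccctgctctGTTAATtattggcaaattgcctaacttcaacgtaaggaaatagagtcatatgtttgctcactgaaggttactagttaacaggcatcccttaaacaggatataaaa
Fgb, GTTAAT, chr3:83049864-83049983, minus strand: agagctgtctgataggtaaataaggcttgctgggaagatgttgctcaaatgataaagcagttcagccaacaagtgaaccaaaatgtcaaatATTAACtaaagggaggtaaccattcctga
Actc1, CArG box, chr2:114052876-114052995, minus strand: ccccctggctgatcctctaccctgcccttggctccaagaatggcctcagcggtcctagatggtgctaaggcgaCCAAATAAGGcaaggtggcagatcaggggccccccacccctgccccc
Myl7, CArG box, chr11:5898783-5898902, minus strand: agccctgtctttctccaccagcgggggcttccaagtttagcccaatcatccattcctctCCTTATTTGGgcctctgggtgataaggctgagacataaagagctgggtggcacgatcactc

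The 60-base sequences of 3 probes are shown because later results turn on them, 1 of *Tnnt2* and 2 of *Myh6*, with coordinates of the files' build, mm7 (NCBI35). Both *Myh6* probes also list the *Myh7* accession, so RNA of these neighbouring and near-identical genes cannot be fully told apart by them. A probe that crosses an intron spans more than its own length in the genome.
Tnnt2, A_51_P338262, chr1:135737607-135737919, plus strand: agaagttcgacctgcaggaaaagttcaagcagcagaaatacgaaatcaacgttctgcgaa
Myh6, A_52_P117510, chr14:49813005-49813064, minus strand: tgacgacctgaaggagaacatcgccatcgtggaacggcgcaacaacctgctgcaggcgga
Myh6, second probe A_51_P512210, chr14:49811341-49812926, minus strand: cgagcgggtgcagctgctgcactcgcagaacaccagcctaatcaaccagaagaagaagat

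Between 45.9% and 55.3% of the probes of an array were detected well above background in Cy3, and between 57.0% and 69.8% in Cy5. None of the member spots was saturated. Cord markers stood where the labels put the cord: 9 of 10 neuron genes, 8 of 8 myelin genes and 3 of 4 astrocyte genes were higher in Cy3 by a log2 ratio of at least 2, as were 5.21% of all tested probes. Among them, the log2 ratio of pool to cord was -8.18 for *Nefl* of neurofilament and -7.58 for the synaptic *Snap25*, -7.33 for the myelin gene *Mobp*, and -6.70 and -6.44 for *Slc1a2* and *Gfap* of astrocytes. Array 4 of SOD1G93A at 40 days stood apart in the cord channel for liver members, array 2 of that group for *Kap* and skeletal muscle genes, and array 3 of SOD1G93A at 80 days for 1 *Otc* spot in both channels. Values that these arrays move most are given with and without them.

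The pool was compared with the cord over all 16 arrays, to ask how far the 3 organs named for the reference can be seen in it. Heart genes had the highest ratios. Liver genes ran from 42.4-fold for *Afp* down to 1.29-fold for *Fga*, with *Otc* near background in both channels. Kidney genes ran from 18.8-fold for *Kap* down to 1.14-fold for *Nphs1*. Where Cy3 was well above background on no array, the mean ratio is set against a cord signal at background and is not a limit. A member was called higher in the pool at an adjusted p under 0.05 and a mean log2 ratio of pool to cord of at least 2, a rule that 877 of 27608 tested probes met (3.18%). It was met by 22 of the 32 members, 11 of 12 heart, 6 of 13 liver and 5 of 7 kidney genes. Without the minimum ratio, 31 of 31 tested members were higher in the pool, against 47.6% of all tested probes. Of these 31, only 19 met the filter in Cy3. The others were 7 with Cy3 well above background on no array, and *Ambp*, *Fgg*, *Cps1*, *Hpx* and *Slc34a1*, with Cy3 that high on too few arrays. These others entered the test only through Cy5, so the filter largely set their direction. The called members *Fgg*, *Ambp*, *Slc34a1* and *Slc12a1* are among them. *Otc* was not tested, since its signal was too low. The median log2 ratio of pool to cord was 4.41 over heart members (0.33 to 5.93), 2.13 over kidney members (0.19 to 4.23) and 1.57 over liver members (-0.05 to 5.41), against 0.03 over all tested probes. In bulk RNA, fewer cells of a type and less RNA per cell cannot be told apart, and the test leaves out the spread of the pool, of which there was 1.

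**Figure D1:**
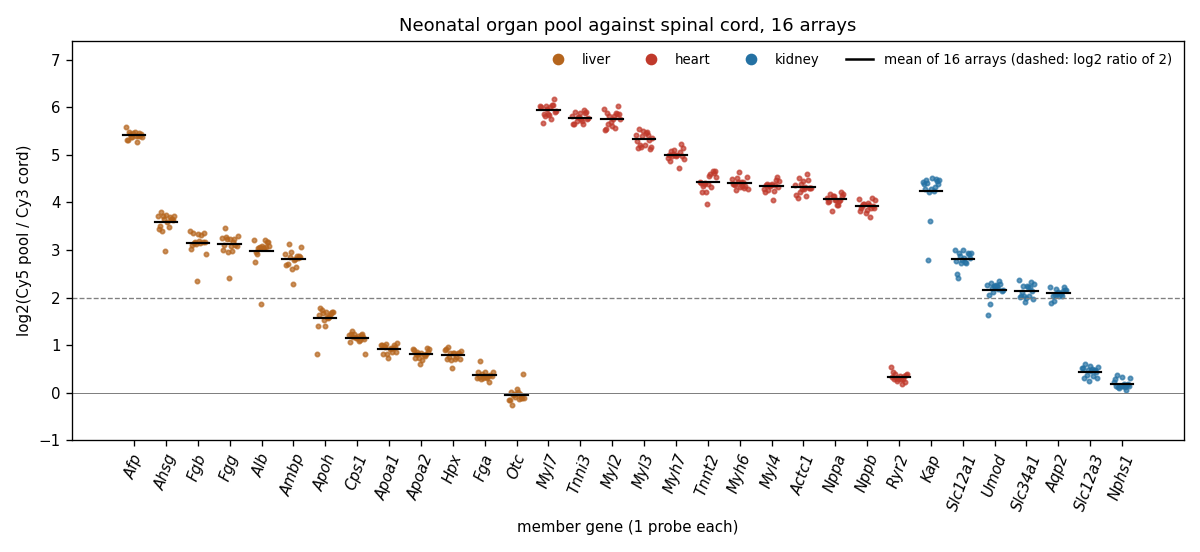
Log2 ratio of the Cy5 pool to the Cy3 cord (vertical axis) of each member gene on the 16 arrays, with 1 point per array, colours for organs and a bar at the mean. Heart genes other than *Ryr2* lie between 3.92 and 5.93 on average, while liver and kidney genes spread from near 0 to 5.41 and 4.23.

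Genes of the cardiac thick and thin filament led the heart members. The atrial light chain *Myl7* had a log2 ratio of pool to cord between 5.66 and 6.17 (median 5.94), with a mean of 5.93 ± 0.13 (SD, n = 16), or 61.1-fold. Cardiac troponin I, *Tnni3*, ranged from 5.64 to 5.94 (median 5.78, mean 5.78 ± 0.10). The ventricular light chain *Myl2* ranged from 5.51 to 6.02 (median 5.78, mean 5.76 ± 0.15). These ranges overlapped one another, and only that of *Myl2* reached into the range of *Myl3*. *Myl3*, the light chain that ventricle shares with slow skeletal muscle, ranged from 5.13 to 5.55 (median 5.34, mean 5.33 ± 0.14). The slow myosin heavy chain *Myh7* ranged from 4.72 to 5.23 (median 4.99, mean 4.998 ± 0.12). Cardiac troponin T, *Tnnt2*, had the widest range of the heart members, 3.98 to 4.66 (median 4.41, mean 4.42 ± 0.18). *Myh6*, *Myl4* and *Actc1* had means of 4.40, 4.34 and 4.32. The natriuretic peptides had means of 4.06 ± 0.10 for *Nppa* and 3.92 ± 0.11 for *Nppb*, and their ranges of 3.81 to 4.22 and 3.69 to 4.10 overlapped.

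The exception among heart genes was *Ryr2*, the cardiac calcium release channel. Its ratio lay between 0.17 and 0.54 (median 0.32, mean 0.33 ± 0.09). Its median Cy5 signal was 170 units. Cy3 did not rise well above background on any of the 16 arrays, so the mean ratio of 1.26-fold is set against a cord signal at background. Of its other probes, 1 was well above background in Cy5 on 13 arrays and 1 on 0, with mean log2 ratios of 0.17 and 0.04. In Cy3, 10 of the 12 heart members were well above background on all 16 arrays.

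Among liver members, the fetal plasma protein *Afp* had the highest ratio and the smallest spread. Its log2 ratio of pool to cord ranged from 5.27 to 5.58 (median 5.40), with a mean of 5.41 ± 0.08 (SD, n = 16), or 42.4-fold, with Cy3 well above background on 14 arrays. The plasma glycoprotein fetuin A, *Ahsg*, ranged from 2.98 to 3.80 (median 3.65, mean 3.58 ± 0.20). The fibrinogen beta chain *Fgb* ranged from 2.35 to 3.39 (median 3.17, mean 3.14 ± 0.25), and the gamma chain *Fgg* from 2.41 to 3.46 (median 3.14, mean 3.12 ± 0.23). The third chain, *Fga*, gave only 0.22 to 0.66 (median 0.35, mean 0.37 ± 0.10), or 1.29-fold against a cord signal at background. Albumin, *Alb*, ranged from 1.86 to 3.22 (median 3.06, mean 2.98 ± 0.32), and *Ambp*, the precursor of alpha-1-microglobulin and bikunin, from 2.28 to 3.12 (median 2.84, mean 2.80 ± 0.20). For *Fgg* and *Ambp*, 1 array measured the cord well above background, and their ratios are otherwise set against a cord signal at background, with the pool 8.68-fold and 6.97-fold higher in the mean. The lowest value of *Alb*, *Fgb*, *Fgg*, *Ahsg* and *Ambp* was in every case that of array 4 of SOD1G93A at 40 days. Without it the ratios of *Alb* started at 2.75, its mean was 3.06 and its SD was 0.12, and the means of *Fgb*, *Fgg*, *Ahsg* and *Ambp* were 3.19, 3.16, 3.62 and 2.84.

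The other 7 liver members were not called. The plasma glycoprotein *Apoh* came nearest, with 0.82 to 1.77 (median 1.64, mean 1.57 ± 0.23). Its lowest value was that of array 1 of wild-type at 40 days, without which the mean was 1.62. The urea cycle enzyme *Cps1* ranged from 0.81 to 1.31 (median 1.17, mean 1.16 ± 0.11). The main protein of high-density lipoprotein, *Apoa1*, ranged from 0.72 to 1.04 (median 0.95, mean 0.93 ± 0.09, or 1.90-fold). *Apoa2* ranged from 0.61 to 0.93 (median 0.81, mean 0.81 ± 0.09, or 1.75-fold). For both, the cord signal was well above background on no array. The heme binding protein *Hpx* had a mean of 0.79 ± 0.11. For *Cps1* and *Hpx*, 1 array measured the cord well above background. *Otc* was near 0 with -0.05 ± 0.14. Its spot was well above background in Cy5 on 2 arrays, and its other 2 probes on 0 arrays. On array 3 of SOD1G93A at 80 days that spot read 798 units in Cy5, against 56.0 to 79.5 units elsewhere, and without that array the mean ratio was -0.08. That reading raised the mean Cy5 signal by which the probe was chosen. Its median was 65.0 units, against 68.0 and 67.5 for the other 2 probes.

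The kidney members separated into *Kap*, 4 genes with means of 2.09 to 2.81 and 2 genes below 0.5. *Kap*, expressed by the proximal tubule, ranged from 2.78 to 4.51 (median 4.38, mean 4.23 ± 0.44, n = 16), with Cy3 well above background on 7 arrays. Its lowest values were those of arrays 2 and 4 of SOD1G93A at 40 days, and without array 2 the mean was 4.33 and the SD 0.22. The sodium-potassium-chloride cotransporter *Slc12a1* ranged from 2.41 to 3.00 (median 2.82, mean 2.81 ± 0.17). It was well above background in Cy3 on 0 arrays, so the mean ratio of 7.0-fold is set against a cord signal at background. *Umod* ranged from 1.64 to 2.34 (median 2.22, mean 2.16 ± 0.18), the phosphate transporter *Slc34a1* from 1.90 to 2.37 (median 2.14, mean 2.13 ± 0.14) and the water channel *Aqp2* from 1.88 to 2.23 (median 2.09, mean 2.09 ± 0.10). The cord signal was well above background on 2 arrays for *Slc34a1* and on 11 for *Umod*. These ranges cross the threshold of 2, so the call of these genes rests on their means. The thiazide-sensitive cotransporter *Slc12a3* ranged from 0.24 to 0.61 (mean 0.44 ± 0.10, or 1.36-fold). Nephrin, *Nphs1*, ranged from 0.05 to 0.37 (mean 0.19 ± 0.09, or 1.14-fold). Both are set against a cord signal at background.

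The call rests on the ratio of Cy5 to Cy3, so the brightness of the pool is part of the rule. Its split between called and uncalled members is not a separate result. The 22 called members had median Cy5 signals of 1783 to 338952 units, and the 10 others 65.0 to 1382 units. Median Cy3 signals lay between 42.0 and 54.0 units in the uncalled members and between 42.0 and 690 in the called ones. With signals this close to the background, the offset of 50 units added before the logarithm draws a ratio toward 0, so the ratios of dim genes understate the difference. Signals of different probes are not comparable as amounts of RNA.

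**Figure D2:**
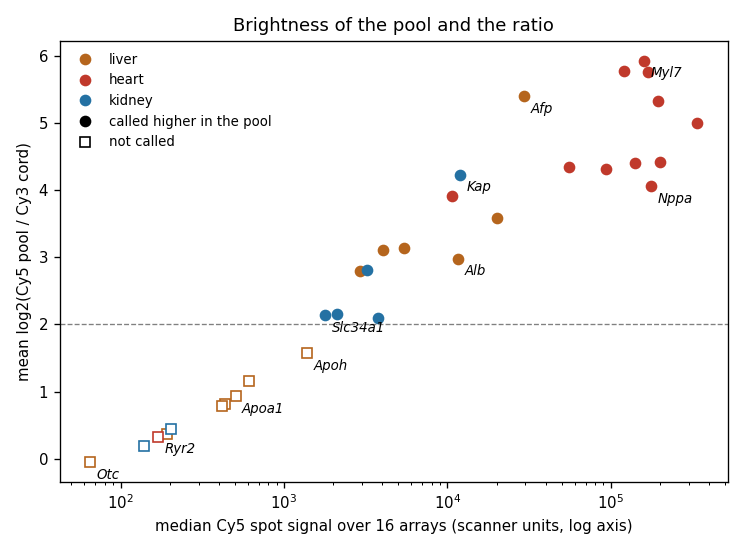
Mean log2 ratio of pool to cord of each member (vertical axis) against its median Cy5 spot signal over 16 arrays (horizontal log axis, scanner units), with filled circles for called and open squares for uncalled members. All 10 uncalled members are at or below 1382 units and all 22 called ones at or above 1783 units. The call itself rests on the Cy5 signal.

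For 4 members, a further probe differed by over 1 on the log2 scale. In *Tnnt2*, the second probe had a mean ratio of 0.28 against 4.42, with a median Cy5 signal of 136 units. In *Slc12a1* the second probe had -0.04 against 2.81 and was well above background in Cy5 on 0 arrays. In *Slc34a1* the second probe had 0.08 against 2.13 and was above background on 5 arrays. In *Myl3* both probes were called, with 3.82 and 5.33. The other second probes of called genes, those of *Myh6*, *Myh7*, *Myl4*, *Nppa*, *Nppb* and *Tnni3*, were called too, with means of 4.99, 5.10, 4.42, 4.41, 3.46 and 5.29. The *Myh7* probes share 55 of their bases and are not independent.

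Further genes used as markers of the same organs were counted in lists, each against the 3.18% of all tested probes. Lung genes, given below, were high in the pool too, and the organ from which a listed gene's signal came was not tested. Among 16 tested sarcomere genes of heart, 13 were called (median 3.76), led by the myosin-binding protein *Mybpc3* with 6.76 and the M-band protein *Myom2* with 4.43. Of 10 genes of calcium handling and conduction, 8 were called (median 3.73), with 4.95 for phospholamban, *Pln*, and 4.63 for sarcolipin, *Sln*. Of 18 heart transcription factors and other heart genes, 14 were called (median 3.52), led by *Smpx* with 5.79 and the cytochrome oxidase subunit *Cox6a2* with 5.20. In liver lists, 2 of 29 plasma protein genes (median 0.82), 3 of 23 enzyme and transporter genes (median 0.39) and 1 of 9 transcription factor genes (median 0.63) were called. Their highest ratios were 3.20 for the protease inhibitor *Serpina1d* and 2.36 for the corticosteroid carrier *Serpina6*, 4.41 for *Fbp1* of gluconeogenesis, and 4.22 for *Foxa2*. *Serpina1d* had an SD of 0.47 over the arrays. As many plasma protein genes, 2 of 29, were higher in the cord by the same rule, *Itih3* with -3.89 and the transferrin gene *Trf* with -3.45.

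In kidney lists, 6 of 17 proximal tubule genes (median 1.32), 8 of 23 distal and collecting duct genes (median 0.53) and 1 of 14 podocyte and progenitor genes (median 0.60) were called. The highest were the water channel *Aqp1* with 4.24 and the protease *Napsa* with 4.10, the kidney cadherin *Cdh16* with 4.47 and *Aqp3* with 3.33, and renin, *Ren1*, with 2.23 and *Podxl* with 1.91. Genes of red cell precursors, which the liver of newborns still holds, were called in 3 of 13 (median 0.41), with 4.64 for *Hba-a1* and 3.42 for the heme synthesis enzyme *Alas2*. Of 7 growth genes of the perinatal period, 4 were called (median 2.19), with 3.87 for *Gpc3* and 2.90 for *Igf2*, and of 13 proliferation genes 4 were called (median 1.45), with 3.11 for *Mki67* and 2.80 for *Ccnb2*.

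Genes of an organ that the labels do not name were among the highest of all. Of 8 lung genes, 6 were called (median 4.38). The club cell protein *Scgb3a2* had a log2 ratio of pool to cord of 7.33 ± 0.15 and the surfactant protein *Sftpd* 6.06 ± 0.15 (SD, n = 16). In the cord channel, 0 of the 8 lay over 0.5 above their median on any array. Skeletal muscle genes were called in 5 of 13 (median 1.08), with 4.07 for *Myh4* and 3.68 for *Ckm*. Lists of other organs were not called in any gene: 0 of 6 for pancreas (*Cpa1* 1.22, *Cpb1* 0.55), 0 of 3 for intestine (*Vil1* 1.49, *Fabp2* 0.23), 0 of 4 for thymus (*Cd3g* 0.16, *Cd8a* 0.11) and 0 of 5 for adrenal (*Mc2r* 0.11, *Pnmt* 0.01). The part of lung tissue in the pool was not tested.

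The 10 probes with the highest ratios held 3 member probes, all of heart, and the 100 highest held 17, of which 15 were of heart, 1 of liver and 1 of kidney. The leading named genes outside the members were *Scgb3a2* (7.33), *Mybpc3* (6.76), the adult beta globin *Hbb-bt* (6.64), the fatty acid carrier *Fabp4* (6.58), *Sftpd* (6.06), *Smpx* (5.79), *Sec14l3* (5.62), the calcium-binding protein *S100g* (5.54), *Cstdc6* (5.49) and mesothelin, *Msln* (5.49).

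The cord channel of the brightest members was a small and narrow share of the pool channel. For 15 member probes of 10 genes with a mean Cy5 signal over 40000 units, all of heart, the net Cy3 signal was 0.0920% to 0.372% of the net Cy5 signal (median 0.194%). Over the 100 probes brightest in Cy5, 9 of them members, the lowest share was 0.0221% and the median 1.84%. Summed over the heart members, net Cy3 was 0.182% to 0.273% of Cy5 on single arrays. Summed over the liver members it was 0.351% to 0.889%, and at most 0.452% without array 4 of SOD1G93A at 40 days. Over the kidney members it was 0.413% to 0.974%, and at most 0.653% without array 2 of that group. The part in these Cy3 signals of light from the bright Cy5 spots, or of probe binding by other RNA, was not tested.

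Among the 16 cords, array 4 of SOD1G93A at 40 days had the highest Cy3 level of 8 of the 13 liver members. On that array 5 of 13 lay over 0.5 above their median on the log2 scale, and the median deviation of the liver members was 0.21, against at most 0.02 on the other arrays. The Cy3 signal of *Alb* was 308 units there and 108 to 154 units on the other 15 arrays. For *Fgb* it was 116 units against 52.0 to 74.0, and for *Fgg* 85.0 units against 41.0 to 46.0. *Ahsg* read 211 units against 122 to 160, and *Ambp* 66.0 against 40.0 to 44.0. For each of these 5 genes the array lay outside the Cy3 range of all the others. The median Cy5 deviation of the liver members from their means was also highest there, at 0.12, against at most 0.080 on the other arrays. In Cy5 that array lay above all the others for *Alb* and *Fgb*, but not for *Fgg*, *Ahsg* and *Ambp*. The net Cy3 signal summed over liver members was 719 units on that array and at most 361 on the others (median 297). Outside the members, *Serpina1d* lay 1.57 above its median there, and 9 of 29 plasma protein genes and 5 of 25 liver enzyme genes had their highest level on it, as did 7.01% of all tested probes. Of these lists, 1 of 29 and 0 of 25 lay over 0.5 above their median there, against 0.414% of all tested probes, with median deviations of 0.077 and 0.0054.

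*Kap* was high in another cord. On array 2 of SOD1G93A at 40 days its Cy3 signal was 176 units, 1.58 above its median on the log2 scale, and on array 4 of that group 72.0 units, against 46.0 to 57.5 units on the other 14. On array 2, 10 of 14 skeletal muscle genes also lay over 0.5 above their median, with a median deviation of 1.81, while 0 of 12 heart members and 4 of 16 further sarcomere genes did, against 0.593% of all tested probes. Skeletal muscle genes also lay over 0.5 above their median on array 2 of SOD1G93A at 80 days (9 of 14), array 3 of wild-type at 40 days (7), array 1 of wild-type at 80 days (7), array 4 of SOD1G93A at 80 days (6) and array 4 of SOD1G93A at 40 days (3). On the last of these, 0.414% of all tested probes lay that far above their median. For the others named here, that share was not computed. Single genes stood out elsewhere: *Apoh* with 125 units on array 1 of wild-type at 40 days against 49.0 to 65.0, and *Umod* with 89.5 and 65.0 units on arrays 2 and 4 of that group. The part of other tissue in these cord samples was not tested.

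**Figure D3:**
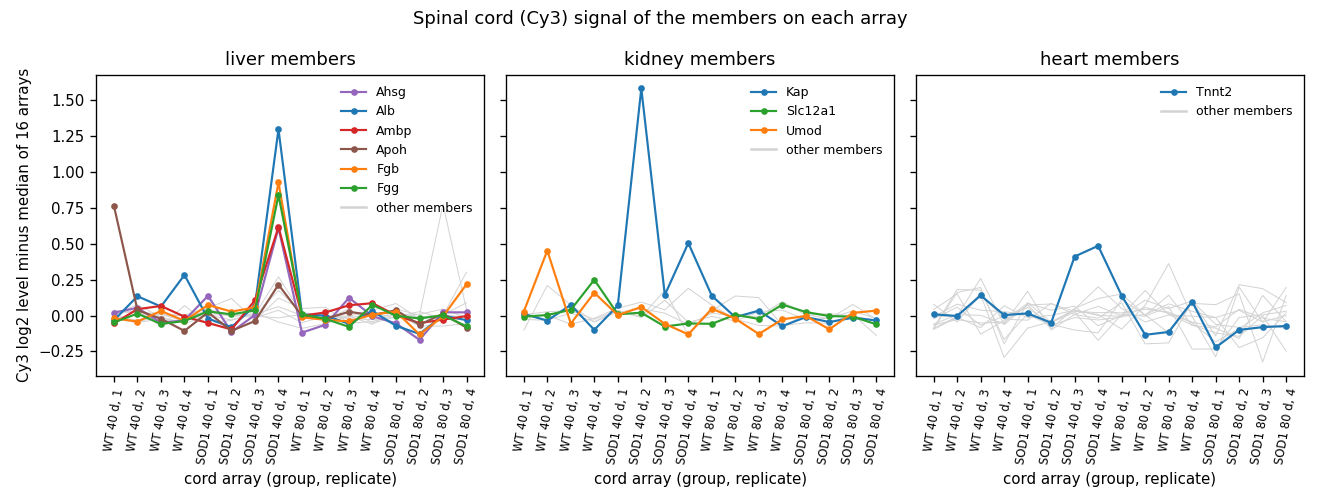
Cy3 log2 level of each member minus its median over the 16 arrays (vertical axis), by cord array (horizontal axis, group and replicate), in a panel per organ, with the genes the text describes in colour and the others in grey. *Alb*, *Fgb*, *Fgg*, *Ambp* and *Ahsg* lie 0.61 to 1.3 above their medians on array 4 of SOD1G93A at 40 days, *Kap* by 1.58 on array 2 of that group, and the heart members stay within 0.5 of their medians.

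Since the same pool lay on every array, the spread of Cy5 is a spread of its measurement. Quantile normalization takes out differences between whole arrays, so the SDs after it leave these out. In raw signals the SD was 0.131 for *Actc1* and 0.195 for *Myh6*, against 0.043 and 0.109 after it. These SDs are of Cy5 alone and are not the error of the ratio. After quantile normalization of the 16 Cy5 channels, the SD of a member over the arrays had a median of 0.098 on the log2 scale, from 0.039 for *Nppa* to 0.191 for *Fga*, with *Otc* at 0.909. Of the 31 members measured above background on all arrays, the median was 0.096, against 0.114 over 22328 such probes. In bins of mean signal that held about equal numbers of probes, 12 of the 31 lay above the median of their bin. They were *Myh6* and *Myl3* of heart, *Alb*, *Ambp*, *Fga* and *Fgg* of liver, and every kidney member but *Umod*. Heart members had a median SD of 0.078, liver members of 0.099 and kidney members of 0.113. The arrays carry 10 spots each of the *Nppa*, *Afp* and *Apoa1* probes, and the median SD among the spots of 1 array was 0.150 and 0.179 for the *Nppa* probes, 0.209 for *Afp* and 0.151 for *Apoa1*. The SD between arrays of the means of these 10 spots was 0.126, 0.165, 0.140 and 0.173 before normalization between arrays, and 0.039, 0.058, 0.041 and 0.093 after it.

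The 4 arrays of a slide hold the same replicate number of all 4 groups, so a slide difference is not a group difference. A test of the 4 slides in Cy5, added after the data were seen, had an adjusted p under 0.05 for 19 of 31 members, 7 of liver, 5 of heart and 7 of 7 kidney genes, near the share of all tested probes (56.5%). The range between slide means had a median of 0.17 and a maximum of 0.36 on the log2 scale. *Ambp* had Cy5 levels of 11.65 to 11.76 on slide 4 and 11.35 to 11.51 on the others. *Aqp2* was low on that slide, with 11.58 to 11.72 against 11.78 to 12.06. *Myl3* was high, with 17.72 to 17.75 against 17.45 to 17.59. Slide 4 lay outside the range of the other slides for each of these probes. The second *Myl3* probe did not have slide 4 apart, with slide means of 13.75, 13.84, 13.59 and 13.69. *Slc34a1* was highest on slide 1, with a slide mean of 10.92 against 10.63 to 10.79.

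In the ratio of cord to pool, the slides differed at an adjusted p under 0.05 for 0 of 19 tested members and 0.255% of all probes, by limma's moderated F test. At an unadjusted p under 0.05 it was 7.81% of all probes. The slide means of the pool to cord ratio of *Aqp2*, for example, were 2.12, 2.10, 2.09 and 2.06. Without array 4 of SOD1G93A at 40 days, 12 members passed in Cy5, and the share of all probes was 47.1%.

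**Figure D4:**
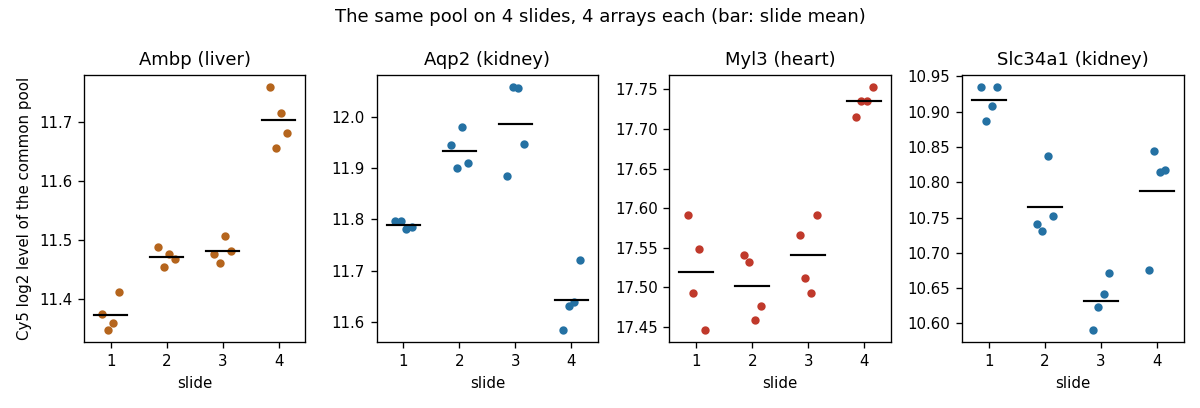
Cy5 log2 level of the common pool (vertical axis) for 4 members on the 4 slides, with 1 point per array and a bar at the slide mean. *Ambp* and *Myl3* lie above the other slides on slide 4 and *Aqp2* below them.

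Genotypes were compared within each age in the log2 ratio of cord to pool, as SOD1G93A minus wild-type, with 4 arrays against 4, where the smallest exact permutation p is 0.0286. At 40 days, 1 of 19 tested members had an unadjusted p under 0.05, against 4.51% of all tested probes, and the adjusted p was under 0.05 for 0 members and 0 probes. It was *Umod*, at -2.31, -2.21, -2.12 and -2.23 on the SOD1G93A arrays 1 to 4 and -2.27, -1.64, -2.05 and -1.86 on those of wild-type. No member's groups were free of overlap at 40 days, against 2.86% of all tested probes. Those of *Umod* overlapped through array 1 of wild-type, and the high values were the arrays 2 and 4 of wild-type whose Cy3 signal stood out. The difference was -0.26 (SE 0.12, limma p = 0.048, adjusted p = 0.997, exact permutation p = 0.114). Within slides 1 to 4 it was -0.04, -0.57, -0.07 and -0.38. With the slide as a block 2 of 19 members, *Umod* and *Kap*, had a p under 0.05 (*Kap* limma p = 0.039, exact permutation p without the block 0.0857), against 4.56% of all probes. Leaving out single arrays moved the difference of *Umod* between -0.37 and -0.16 and its p between 0.0042 and 0.131, with p over 0.05 without wild-type arrays 2 or 4 or any of the 4 SOD1G93A arrays. The largest difference was that of *Kap*, 0.64 (limma p = 0.051, exact permutation p = 0.0857), with the 2 high cords described above in the SOD1G93A group. Without array 2 of SOD1G93A it was 0.32 (adjusted p = 1.00), and without arrays 2 and 4 it was 0.08, with an adjusted p of 1.00 in limma.

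At 80 days, 1 of 17 tested members had a p under 0.05, against 6.86% of all probes, and again 0 members and 0 probes passed after adjustment. Atrial natriuretic peptide, *Nppa*, read -4.06, -4.22, -4.13 and -4.17 on the SOD1G93A arrays and -4.05, -3.96, -3.94 and -4.03 on the wild-type arrays. The groups did not overlap, as was so for 4.32% of all tested probes. The difference was -0.15 (SE 0.06, limma p = 0.029, adjusted p = 0.706, exact permutation p = 0.0286). Within slides it was -0.01, -0.27, -0.19 and -0.14. Leaving out wild-type arrays 2 or 3 or SOD1G93A arrays 2 or 4 raised the limma p over 0.05, up to 0.0865 (exact permutation p = 0.0286 with all arrays). With the slide as a block its p was 0.0556, which leaves 0 members, and the second *Nppa* probe had -0.12 (p = 0.075 in limma, exact permutation p = 0.0857). *Aqp2* groups did not overlap either, with a difference of -0.11 (limma p = 0.061, exact permutation p = 0.0286).

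The 2 probes of *Myh6* differed at 80 days. The first gave 0.02 (limma p = 0.758, exact permutation p = 0.771), and its sign turned in Cy3 alone and in the values of the authors. The second gave -0.23 (SE 0.08, limma p = 0.011, adjusted p = 0.680, exact permutation p = 0.0286). It read -5.08, -5.20, -5.0 and -5.06 on SOD1G93A arrays and -4.98, -4.76, -4.74 and -4.93 on wild-type arrays, with no overlap.

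Between the ages, 2 of 19 tested members had a p under 0.05 in the ratio of cord to pool, against 22.9% of all tested probes, and 1 had an adjusted p under 0.05, against 5.39%. *Tnnt2* was lower at 80 days. Its log2 ratio of cord to pool ranged from -4.43 to -3.98 over the 8 arrays of 40 days (median -4.36) and from -4.66 to -4.33 over those of 80 days (median -4.57). The ages overlapped, as did those of all tested members, where 1.39% of all probes had none, and the highest value was that of array 4 of SOD1G93A at 40 days. The difference, 80 minus 40 days, was -0.25 (SE 0.06, limma p = 0.0011, adjusted p = 0.030, exact permutation p = 0.0028). Within slides it was -0.13, -0.18, -0.41 and -0.28. The adjusted p exceeded 0.05 in the Cy3 channel alone (0.204), without normalization within arrays (0.181), without the reset of bright backgrounds (0.0723) and without 1 of 7 arrays, up to 0.0624 (wild-type array 3 and SOD1G93A array 3 at 40 days, wild-type arrays 2 and 3 and SOD1G93A arrays 1, 2 and 3 at 80 days). *Umod* differed by -0.15 (SE 0.07, limma p = 0.048, adjusted p = 0.215, exact permutation p = 0.0991). Leaving out single arrays moved that difference between -0.20 and -0.10, and its p was over 0.05 without any 1 of 11 of the 16 arrays, that is, all but arrays 1 and 3 of wild-type and 1 of SOD1G93A at 40 days and arrays 3 and 4 of SOD1G93A at 80 days.

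The genotype difference of *Kap* itself differed between the ages, by -0.75, at an unadjusted p under 0.05, which 6.72% of all probes reached. It was -0.42 without array 2 of SOD1G93A at 40 days and -0.19, with a p over 0.05, without arrays 2 and 4, fits that were added after the data were seen. In the Cy3 channel alone, 0 of 19 members at 40 days (2.6% of all probes), 1 of 17 at 80 days (*Nppa*, 5.22%) and 1 of 19 between the ages (*Tnnt2*, 17.3%) had an unadjusted p under 0.05.

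In the Cy5 reference itself, the same contrasts gave 0 of 31 members at 40 days (0.772% of all probes), 0 of 31 at 80 days (0.796%) and 1 of 31 between the ages (3.24%) at an unadjusted p under 0.05. The member was *Myh7*, at 18.30 at 40 days and 18.39 at 80 days (difference 0.09, limma p = 0.034, adjusted p = 1.00, exact permutation p = 0.0143). Its second probe differed by 0.01 (limma p = 0.806, exact permutation p = 0.789). With the replicate block, 1 of 31 members, *Slc12a3*, passed at 80 days, against 3.28% of all probes.

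**Figure D5:**
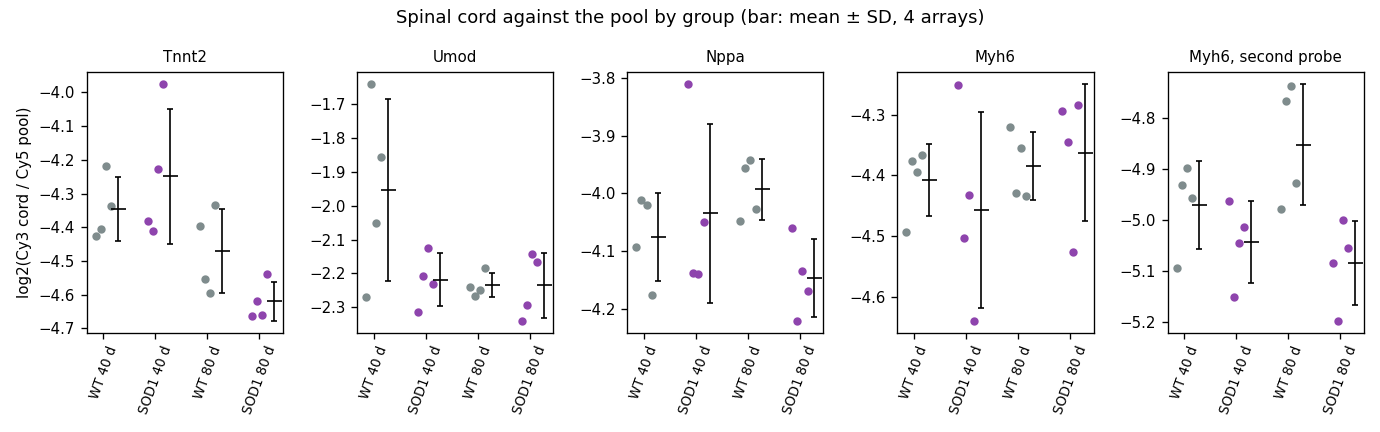
Log2 ratio of cord to pool (vertical axis) by genotype and age for *Tnnt2*, *Umod*, *Nppa* and both probes of *Myh6*, with 1 point per array and a bar for mean ± SD of 4 arrays. *Tnnt2* is lower by 0.25 at 80 days, and the 80-day groups of *Nppa* and of the second *Myh6* probe do not overlap.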

How the data were processed

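Lumbar cord RNA (Cy3) and a pool of neonatal organ RNA (Cy5) were hybridised to 16 Agilent arrays. The deposited spot files give linear intensity, extracted by the authors with Agilent Feature Extraction 9.5.3.1 per the file headers, and marks of spot quality. The authors' series matrix gives log2 expression, filtered and normalized with Agi4x44PreProcess and limma per the study's methods, and its values follow Cy3.

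Median signals were corrected with normexp (offset 50), after local backgrounds over 20 units above their own spot were set to the array median, and normalized by loess and Aquantile in limma 3.58.1 (R 4.3.3). Single channels were quantile normalized. Control and outlier spots were left out and spots of a probe averaged. Probes were tested with lmFit and eBayes if well above background in Cy3 (for the pool in either channel, for the reference in Cy5) on 3 of the 4 arrays of a group, with Benjamini-Hochberg adjustment over all tested probes. Between groups, members were counted at a nominal p, as in the study's methods. Permutation tests were exact and two-sided. The fits were tested on simulated data. The number of arrays limits the precision.

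The members and lists were chosen with earlier results of these data known. Named were all members, the 10 leading genes outside them, and the 2 leading genes of a list, some of which are not reported here. Per the file headers, arrays of the same replicate number share a slide and a scan run, and a group always lies at the same position, so group and position cannot be told apart. P-values measure the spread between these arrays. Deviations of same-numbered arrays correlated by -0.11 to 0.22 (24 pairs). Figures were drawn with matplotlib in Python.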

Additional observations from a re-analysis of the deposited data

Results flagged for a closer look

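Of 256 groups of 4 arrays, 15 held an array whose gap to the next was large against the group's range, 9 in the ratio and 6 in Cy5, where chance gives about 1 in 20. In the log2 ratio of cord to pool these were *Alb* (-1.86) and *Fgb* (-2.35) on array 4 of SOD1G93A at 40 days, the array with high Cy3 signals of liver members, *Nphs1* (-0.33) on the same array, *Actc1* on array 1 (-4.48), *Slc12a1* on array 3 (-2.82), *Otc* on array 3 (-0.39) and *Ambp* on array 4 (-3.07) of SOD1G93A at 80 days, *Slc34a1* on array 3 of wild-type at 80 days (-2.02) and *Apoa1* on array 3 of wild-type at 40 days (-0.80). In the log2 level of Cy5 they were *Myl3* (17.74) and *Slc12a3* (8.0) on array 4 of SOD1G93A at 40 days, *Fgg* on array 4 of wild-type at 40 days (12.24), *Umod* on array 1 (11.15), *Myh6* on array 3 (16.74) and *Otc* on array 3 (9.72) of SOD1G93A at 80 days.

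The genotype difference of *Kap* differed between the ages, by -0.75 on the log2 scale (80 minus 40 days, SE 0.32, adjusted p = 0.723 in limma), where 6.72% of all probes had an unadjusted p under 0.05. The difference was 0.64 at 40 days, with 1.59 on slide 2 and 0.86 on slide 4 against 0.04 and 0.07 on slides 1 and 3. The cords of arrays 2 and 4 of SOD1G93A at 40 days are those with high *Kap* signals.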

How the results depend on the processing

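The 22 calls of members in the pool came to 22 without any 1 array, to 24 with an offset of 10, to 27 without normalization within arrays and to 30 with the processed signals, and the causes of the shifts below were not tested. The calls over all probes came to 1480, 15334 and 3319 under these 3 settings. The median ratio of liver, heart and kidney members was 2.25, 4.71 and 3.06 with an offset of 10, 4.31, 8.26 and 5.01 without normalization within arrays, where the median of all tested probes was 2.23, and 4.15, 4.95 and 4.23 with the processed signals, where it was 0.21. Without background subtraction the liver and kidney medians were 1.72 and 2.33. The median SD of Cy5 was 0.0722 with the processed signals.

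Members with a p under 0.05 between genotypes at 40 days numbered 0 without the reset of backgrounds, without background subtraction, with mean signals, in Cy3 alone, in the authors' series matrix, with Cy3 above background on all arrays and with array weights, 2 without normalization within arrays, with the replicate block and with 16 arrays for the spread, and 3 without the filter on dim probes. Leaving out 1 array gave 0 to 2, with 0 without wild-type arrays 2 or 4 or SOD1G93A arrays 2 or 4 and 2 without wild-type array 1. The 1 member was *Kap* in place of *Umod* with processed signals and without SOD1G93A arrays 1 or 3. At 80 days it was *Myl4* in place of *Nppa* with processed signals and in the authors' series matrix, *Myl3* without normalization within arrays and *Tnnt2* without wild-type array 3 or SOD1G93A array 4, and there were 2 without background subtraction, with mean signals and with 16 arrays for the spread, 4 without the filter, 5 with array weights and 0 with the replicate block, and leaving out 1 array gave 0 to 3, with 0 without array 2 of either genotype, 2 without wild-type array 4 or SOD1G93A array 3 and 3 without wild-type array 1. Between the ages there was 1 without background subtraction, with processed signals, in Cy3 alone, with Cy3 above background on all arrays and with array weights, 13 in the authors' series matrix, whose quantiles differ between the ages and where 56% of all probes passed, and 1 to 4 without 1 array, with 4 without array 1 of either genotype at 40 days. In Cy5, 1 member passed at 80 days with the replicate block, and between the ages 0 passed with mean signals, with processed signals, with the 75th percentile and after loess and Aquantile, and 0 to 1 without 1 array. The block moved no other count of members by over 1.5 times. Slides differed in Cy5 for 12 members with processed signals and 12 to 20 without 1 array. *Myh6* at 80 days turned to -0.0095 in Cy3 alone and -0.014 in the authors' series matrix, with -0.0038 to 0.077 without 1 array. Low signal over background limits the ratios of the 7 members that Cy3 detected on no array. It also reaches the 12 members that Cy3 detected on only some of the arrays.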
